A study of Rattus norvegicus with 6 samples.

Results

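The 10 genes described here encode transcription factors and regulators of the immediate early response, together with Myc. They are Fos, Fosb, Fosl1 and Fosl2 of the Fos family, Jun, Junb and Jund of the Jun family, and Egr1, Ier2 and Myc. They were chosen by gene symbol from the 40456 rows of the deposited count table, and all 10 were found there and passed the expression filter that left 14216 genes for testing. Poly-A RNA was sequenced from H9c2 (2-1), a rat cardiomyoblast line of wild-type genotype that the labels call a cardiomyocyte. All cells of both groups were kept for 5 days in medium with 1% serum and 1 µM retinoic acid and were harvested 24 h after transfection with a locked nucleic acid gapmer at 25 nM. Gapmers are short modified strands of DNA that pair with a matching RNA, which RNase H then cuts. The control group (n = 3 libraries) received a negative control gapmer and the knockdown group (n = 3 libraries) one that targets Tug1, a long non-coding RNA. The study used 1 gapmer per group in 1 cell line, and the labels do not say whether the replicates were separate cultures, so p-values measure the spread between these libraries, which may be technical. The 16-base gapmers, shown because they are the labelled difference between the groups, read as follows from 5′ to 3′.
Tug1 gapmer: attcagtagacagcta
negative control gapmer: gctcccttcaatccaa

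Immediate early genes are switched on within minutes of a signal such as serum, a growth factor or stress, without the need for newly made protein. Growth factor signals reach them through RAS, RAF, MEK and ERK, which activate factors bound at serum response elements and cyclic AMP response elements (CRE) near the start site. Many of their mRNAs are short-lived, so levels follow changes in transcription or decay quickly. Neither transcription nor decay was measured here. FOS and JUN proteins pair through leucine zippers to form AP-1, JUNB and JUND can take the place of JUN in the pair, and MYC pairs with MAX to raise genes of ribosome production and growth. In the heart, FOS, JUN, EGR1 and MYC are known as part of the early response to load and to hypertrophic agonists.

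The libraries held 12978548 to 13544337 counts. Levels are CPM, which are counts divided by the TMM-scaled size of the library, and 1 CPM stood for 12.9 to 13.8 counts. Tug1 itself had a control level of 54.0 ± 1.77 CPM and a knockdown level of 11.9 ± 0.609 CPM (SD, n = 3), with a log2 fold change of -2.19, in the direction the labels give. Of all tested genes 61.7% were called changed, which means an adjusted p under 0.05 in the quasi-likelihood test of edgeR. Of all tested genes 30.8% rose and 30.9% fell. No library stood apart: the SD of log2 ratios was 0.287 to 0.312 between libraries of a group and 0.649 to 0.679 between groups. All 10 striated muscle markers were tested, and 9 rose, among them Myog (log2 fold change 0.82) and Tnnt2 (0.24), while Myod1, named after its value was seen, was at -0.32 and lost its call with an offset for gene length (-0.13). The summed level of these markers went from 1289 to 1355 CPM in controls to 1844 to 1921 CPM after knockdown. Fibroblast markers, led by collagens, summed to 43710 to 45058 CPM in controls and 41119 to 43913 CPM after knockdown. That sum is mostly collagen and hides moves both ways. Of 6 tested fibroblast markers 2 rose and 2 fell, with log2 fold changes from -0.40 to 0.57. Endothelial markers summed to under 4.48 CPM in every library, leukocyte markers to 10.8 to 12.3 CPM in controls and 15.7 to 17.4 CPM after knockdown, and the leukocyte genes Ptprc and Adgre1 were at 0. The part of the muscle state in the results below was not tested. In these bulk samples, fewer expressing cells and less RNA per cell cannot be told apart.

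Of the 10 genes, 8 fell, 1 rose and 1 did not pass the test, where 30.9% of all tested genes were called lower. A fall of at least 1 on the log2 scale was found for 4 of the 10, against 5.21% of all tested genes. The order ran from Ier2 (-1.82) through Fos (-1.53), Egr1 (-1.37), Junb (-1.04), Fosb (-0.91), Fosl1 (-0.89), Myc (-0.87) and Jun (-0.31) to Jund (0.03) and Fosl2 (0.20), each as log2 fold change of knockdown over control. The median of the 10 was -0.90, and that of all tested genes was 0.00. Groups without any overlap were found for 9 of the 10, all but Jund, against 65.6% of all tested genes. In 8 of them the knockdown libraries were the lower ones, against 32.6%. The 10 genes were chosen with earlier results of these data known, so these shares only describe them.

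**Figure D1:**
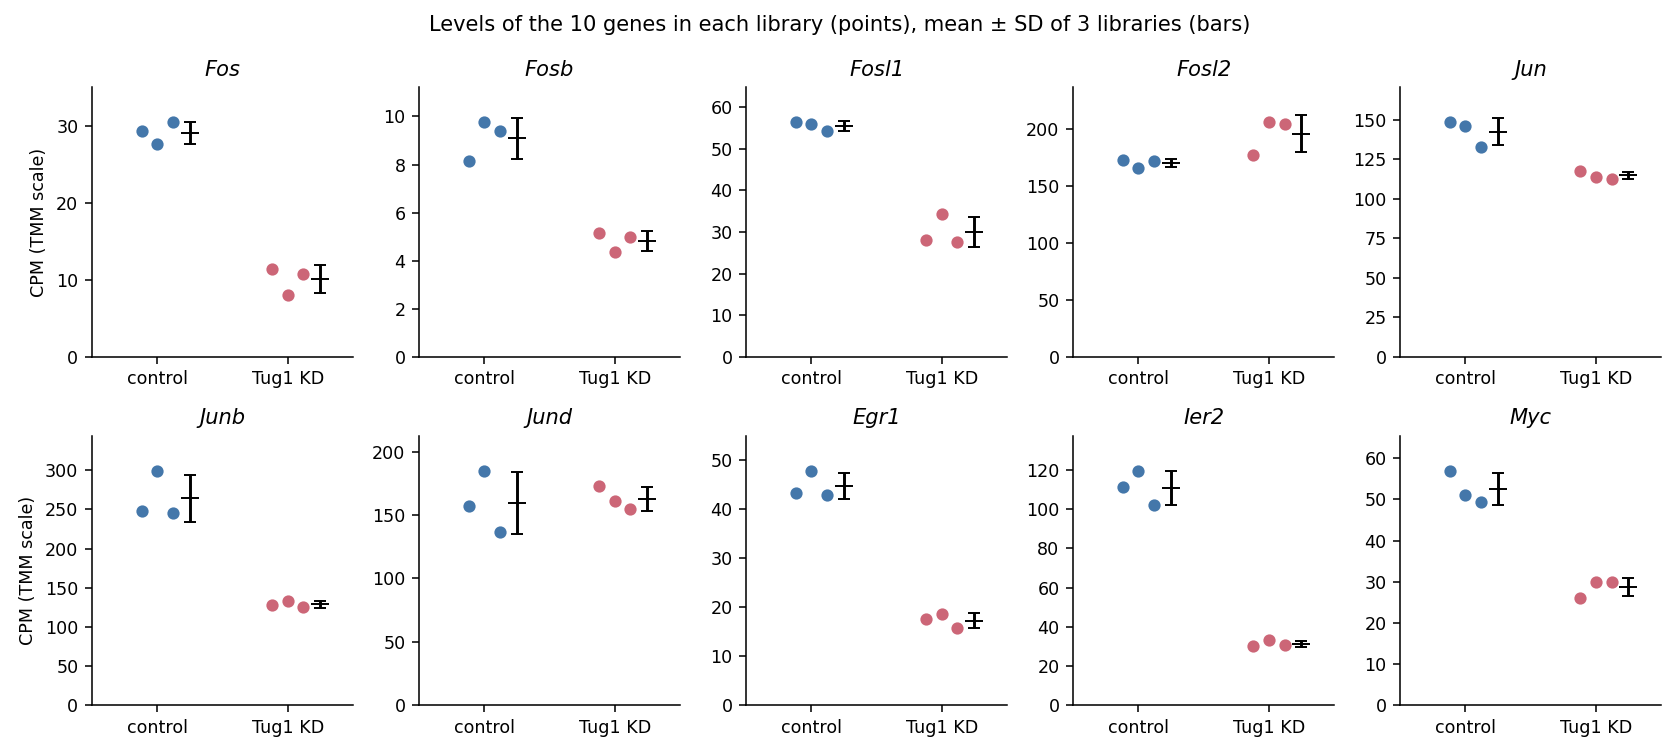
Level of each of the 10 genes in CPM (y axes, from 0, each with its own range) in the 3 control (blue) and 3 Tug1 knockdown (red) libraries; points are libraries and bars the mean ± SD. The groups are apart for all genes except Jund, and Fosl2 is the only gene whose knockdown libraries all lie above the controls.

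Fos encodes the founding member of the Fos family, which cannot pair with itself and binds DNA only with a JUN partner. Its level was 29.3, 27.6 and 30.5 CPM in control replicates 1 to 3 and 11.5, 8.06 and 10.8 CPM in knockdown replicates 1 to 3. The knockdown libraries were all low, replicate 2 lowest, and the groups were far from overlapping. Its mean of 29.1 ± 1.42 CPM (SD, n = 3) in controls fell to 10.1 ± 1.80 CPM (SD, n = 3), with a log2 fold change of -1.53 with an SE of 0.106 (edgeR adjusted p 2.60e-11). The knockdown level was 34.7% of the control level, and the fold change lay between -1.63 and -1.39 when any 1 library was left out.

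Fosb, a close relative of Fos, was the lowest of the 10 in CPM. It had 8.13, 9.75 and 9.41 CPM in control replicates 1 to 3 and 5.15, 4.36 and 4.98 CPM in knockdown replicates 1 to 3, from 106 to 126 counts in controls and 59 to 71 after knockdown. Every knockdown library lay below the lowest control. The log2 fold change was -0.91 with an SE of 0.145 (edgeR adjusted p 9.93e-06), with the widest error of the 10 genes.

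Fosl1 encodes FRA1, a Fos family protein that lacks the transactivation domain of FOS and is itself a known AP-1 and ERK-dependent gene. It had 56.4, 55.9 and 54.2 CPM in control replicates 1 to 3 and 28.1, 34.2 and 27.6 CPM in knockdown replicates 1 to 3. The controls were tight, and knockdown replicate 2 was the highest of its group but still well below them. The log2 fold change was -0.89 with an SE of 0.0754 (edgeR adjusted p 7.23e-10).

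Fosl2 encodes FRA2, the relative of FRA1, and went the other way. Its level was 172, 166 and 172 CPM in control replicates 1 to 3 and 177, 206 and 205 CPM in knockdown replicates 1 to 3. Replicate 1 of the knockdown lay only just above the controls, and the groups did not overlap. The rise was small, with a log2 fold change of 0.20 with an SE of 0.0546 (95% interval 0.0914 to 0.318, edgeR adjusted p 0.00245), and remained called when any 1 library was left out (0.17 to 0.27).

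The promoters of Fosl1, which fell, and Fosl2, which rose, are shown as the pair of Fos family genes that moved apart. Each line is the 250 bases before the start site from RefSeq's table for the rat assembly GRCr8, and capitals mark matches to a CArG box (the core of a serum response element), to TGACG (the short CRE, whose letters are also part of the full CRE, TGACGTCA) or to TGANTCA (the AP-1 site), on either strand. Fosl1 lies at chr1:212183635-212183884 on the plus strand and Fosl2 at chr6:30039270-30039519 on the minus strand. Fosl1 had 2 short CREs, 80 and 144 bases before the start, and Fosl2 had no match to these motifs.
Fosl1: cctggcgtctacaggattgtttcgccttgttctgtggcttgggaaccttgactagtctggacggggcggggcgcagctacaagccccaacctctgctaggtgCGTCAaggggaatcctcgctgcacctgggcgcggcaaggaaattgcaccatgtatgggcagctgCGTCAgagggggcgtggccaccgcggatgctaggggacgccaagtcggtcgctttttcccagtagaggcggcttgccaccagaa
Fosl2: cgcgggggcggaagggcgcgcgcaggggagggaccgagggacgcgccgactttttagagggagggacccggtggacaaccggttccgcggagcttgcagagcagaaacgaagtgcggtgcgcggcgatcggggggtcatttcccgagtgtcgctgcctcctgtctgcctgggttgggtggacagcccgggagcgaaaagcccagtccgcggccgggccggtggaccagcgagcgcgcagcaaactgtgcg

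The Jun family split in 3 ways, with a large fall of Junb, a small fall of Jun and no detectable change of Jund. Jun encodes c-JUN, the family's strongest activator. It had 148, 146 and 133 CPM in control replicates 1 to 3 and 117, 114 and 113 CPM in knockdown replicates 1 to 3. The groups did not overlap, but control replicate 3 lay closer to the knockdown than the other controls did. The log2 fold change was -0.31 with an SE of 0.053 (edgeR adjusted p 2.11e-05). With an offset for gene length it was -0.14 (edgeR adjusted p 0.0204), a smaller fall that was still called.

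Junb encodes JUNB, a weaker activator that can oppose JUN. Its level was 248, 299 and 245 CPM in control replicates 1 to 3 and 128, 134 and 125 CPM in knockdown replicates 1 to 3. Control replicate 2 was high, and every knockdown library was far below all controls. The mean went from 264 ± 30.3 to 129 ± 4.45 CPM (SD, n = 3), with a log2 fold change of -1.04 with an SE of 0.0622 (edgeR adjusted p 2.30e-12). Without control replicate 2 and in the other fits with 1 library left out it ran from -1.08 to -0.94.

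Jund encodes JUND, which many cells make steadily and which is known to respond less to growth factors. It had 157, 185 and 137 CPM in control replicates 1 to 3 and 173, 161 and 154 CPM in knockdown replicates 1 to 3. The controls spread more widely than the knockdown libraries and enclosed all of them. The log2 fold change was 0.03 with an SE of 0.0731 (edgeR adjusted p 0.740), with a 95% interval from -0.121 to 0.182, so a change of the size seen for Junb lay outside it. The sign depended on single libraries: it was -0.07 without control replicate 3, -0.01 without knockdown replicate 1 and 0.15 without control replicate 2. With the length offset Jund was called higher (0.25, edgeR adjusted p 0.00207).

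The promoters of Junb and Jund are shown for the same reason, with capitals as above. Junb lies at chr19:40080876-40081125 on the plus strand and Jund at chr16:18769772-18770021 on the minus strand. Junb had 1 short CRE, 151 bases before the start, and the letters TATAAA, by which the general transcription machinery is placed, 44 bases before it, here in lower case. Jund had a full CRE, 214 bases before the start, and a further short CRE at 94 bases.
Junb: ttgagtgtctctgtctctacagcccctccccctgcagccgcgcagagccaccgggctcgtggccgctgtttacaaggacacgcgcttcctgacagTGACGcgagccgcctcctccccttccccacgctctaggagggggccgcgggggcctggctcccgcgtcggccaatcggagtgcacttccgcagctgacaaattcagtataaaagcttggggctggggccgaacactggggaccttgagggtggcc
Jund: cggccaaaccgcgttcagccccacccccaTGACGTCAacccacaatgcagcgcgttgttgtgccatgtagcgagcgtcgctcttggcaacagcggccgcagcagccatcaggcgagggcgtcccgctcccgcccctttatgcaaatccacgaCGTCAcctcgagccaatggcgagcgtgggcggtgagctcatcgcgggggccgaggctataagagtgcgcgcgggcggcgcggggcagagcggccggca

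Jun, Junb, Jund and Ier2 are genes without introns, so their genomic span in GRCr8 can serve as transcript length and their levels can be compared per kilobase. In controls Junb stood highest at 148 ± 17.0 CPM per kb, followed by Jund at 95 ± 14.4, Ier2 at 72.7 ± 5.66 and Jun at 46.1 ± 2.71 CPM per kb (SD, n = 3). After knockdown the order was Jund at 97.0 ± 5.71, Junb at 72.1 ± 2.49, Jun at 37.1 ± 0.783 and Ier2 at 20.6 ± 0.998 CPM per kb (SD, n = 3). Neighbours in each order did not overlap in any library, so Jund passed Junb, and Jun passed Ier2. The authors' own gene models were not given, and other lengths would move these levels but not the change of a single gene.

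The summed CPM of the Jun family was 566 ± 58.6 in controls and 406 ± 13.4 after knockdown (SD, n = 3), and that of the Fos family was 264 ± 3.97 and 241 ± 16.5. The libraries did not overlap in either sum, although the Fos family sum came close, with 259 CPM in the lowest control and 252 CPM in the highest knockdown library. The makeup of both families differed between the groups as well. Of the reads of the Fos family, Fosl2 took 64.5% ± 0.399 in controls and 81.3% ± 1.34 after knockdown, while Fos went from 11.0% ± 0.399 to 4.23% ± 0.988 and Fosl1 from 21.0% ± 0.596 to 12.5% ± 1.23 (SD, n = 3). Of the reads of the Jun family, Junb went from 46.6% ± 1.60 to 31.7% ± 1.08, Jund from 28.1% ± 1.42 to 40.1% ± 1.16 and Jun from 25.3% ± 1.84 to 28.2% ± 0.461 (SD, n = 3). These are shares of reads, which a longer transcript raises, not shares of molecules or of protein, and they were not tested.

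**Figure D2:**
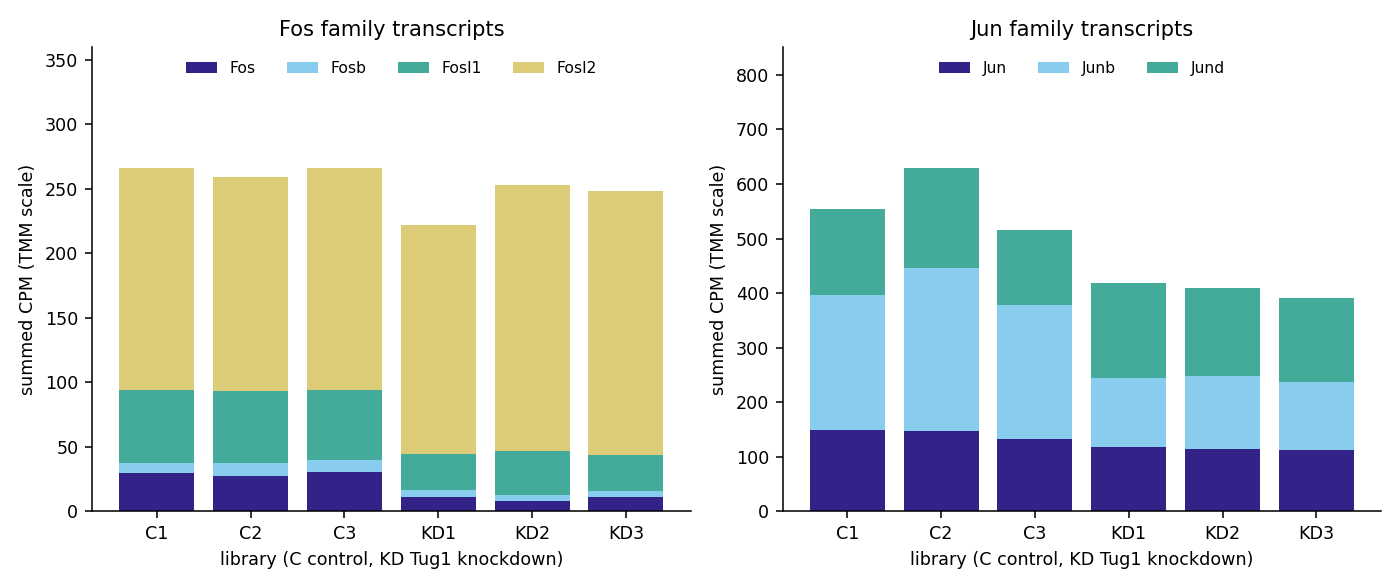
Stacked CPM (y axis, from 0) of the Fos family (left) and the Jun family (right) in each library, C for control and KD for Tug1 knockdown. Fosl2 makes up 64.5% of the Fos family reads in controls and 81.3% after knockdown, and the Junb part of the Jun family shrinks from 46.6% to 31.7%.

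Egr1 encodes a zinc finger factor that is among the most sensitive responders to ERK. It had 43.3, 47.7 and 42.9 CPM in control replicates 1 to 3 and 17.5, 18.6 and 15.7 CPM in knockdown replicates 1 to 3. Both groups were tight and far apart. The log2 fold change was -1.37 with an SE of 0.0814 (edgeR adjusted p 1.99e-12), to 38.7% of the control level. In the 300-base promoter table Egr1 was the only one of the 7 genes with an entry that held a CArG box, with 2 matches, 74 and 96 bases before the start, and such a match was found in 1.64% of all 33469 promoters.

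Ier2 encodes a small nuclear protein of the immediate early response and fell furthest. It had 111, 119 and 102 CPM in control replicates 1 to 3 and 30.4, 33.1 and 30.7 CPM in knockdown replicates 1 to 3. The groups were the farthest apart among the 10 genes. The mean went from 111 ± 8.63 to 31.4 ± 1.52 CPM (SD, n = 3), with a log2 fold change of -1.82 with an SE of 0.0665 (edgeR adjusted p 5.23e-16), to 28.3% of the control level. It ranked 253 of 14216 tested genes by absolute log2 fold change. Its promoter, at chr19:40399123-40399372 on the plus strand, is shown as that of the gene with the largest fall. It held a full CRE 59 bases before the start, marked in capitals.
Ier2: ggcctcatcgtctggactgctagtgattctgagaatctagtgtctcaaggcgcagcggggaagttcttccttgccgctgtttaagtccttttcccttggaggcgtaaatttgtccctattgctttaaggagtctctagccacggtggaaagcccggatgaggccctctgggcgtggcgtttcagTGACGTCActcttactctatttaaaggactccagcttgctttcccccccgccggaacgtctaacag

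Promoters were matched for 7 of the 10 genes, all but Fos, Jun and Myc. The full CRE was found in Ier2, which fell most, and in Jund, which did not pass the test, against 1.83% of all promoters. The short CRE was in 5 of the 7 (Fosl1, Junb, Jund, Egr1 and Ier2), against 21.2% of all promoters. The AP-1 site and the E-box CACGTG, which MYC and MAX bind, were in none of the 7, against 7.33% and 6.42%. CCGGAA, a core of ETS factor sites, was in Ier2 alone (15.0% of all promoters), and the EGR site GCGNGGGCG was in Fosl2 and Jund (4.98%). GGGCGG, which SP1 binds and which can overlap an EGR site, was in Fosl1, Fosl2 and Jund (33.1%). TATAAA was in Junb, and in Fosb on the opposite strand and 175 bases before the start (14.2% of all promoters). Both strands were searched. These matches describe letters in a window of 300 bases, with 250 before and 50 after the start.

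Myc encodes the founding member of the MYC family, which drives cell growth. It had 56.9, 51.2 and 49.4 CPM in control replicates 1 to 3 and 26.2, 30.0 and 29.8 CPM in knockdown replicates 1 to 3. Control replicate 1 and knockdown replicate 1 were the farthest apart, and no libraries overlapped. The mean went from 52.5 ± 3.94 to 28.7 ± 2.18 CPM (SD, n = 3), with a log2 fold change of -0.87 with an SE of 0.0749 (edgeR adjusted p 8.58e-10), to 54.6% of the control level.

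**Figure D3:**
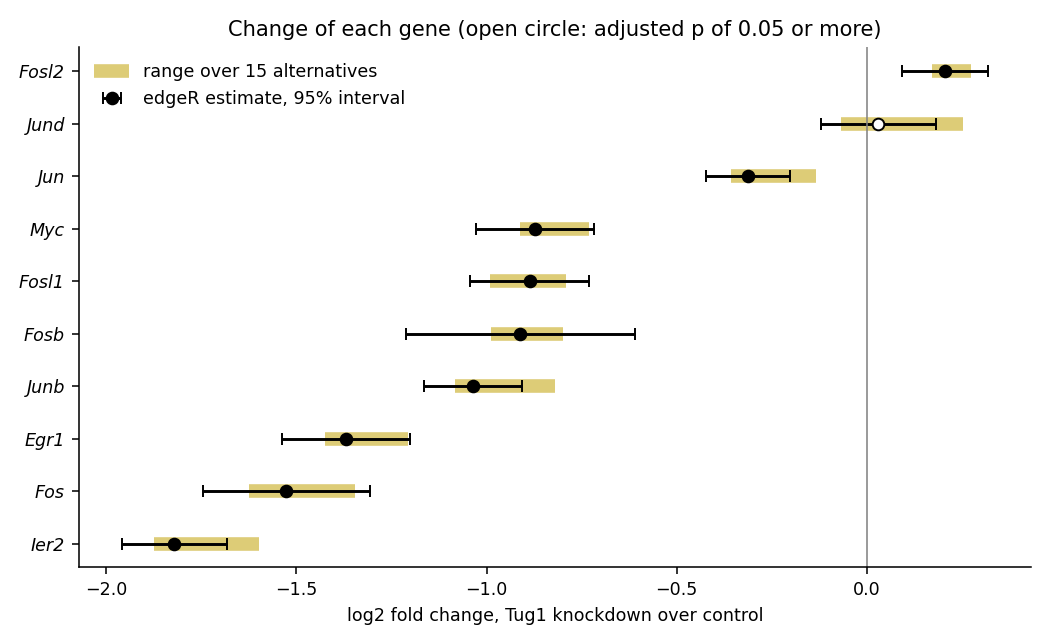
Log2 fold change of knockdown over control (x axis) for each gene, with the edgeR estimate and its 95% interval (black; open where the adjusted p is 0.05 or more) and the range over 15 alternative fits (yellow). The 8 genes that fell lie left of 0 in every fit, Fosl2 lies right of 0 in every fit, and the range of Jund spans 0.

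Most of the 10 genes are short, and length moved with the change across all genes. By genomic span, 6 of the 10 (Ier2, Jund, Junb, Fos, Jun and Egr1) were in the shortest decile of the tested genes with a span, whose median log2 fold change was -0.21 and of which 44.1% were called lower. In the longest decile the median was 0.33 and 11.8% were called lower. With an offset that removed the length trend, the 8 falls stayed called, at -1.60 for Ier2, -1.34 for Fos, -1.21 for Egr1, -0.82 for Junb, -0.80 for Fosb, -0.79 for Fosl1, -0.73 for Myc and -0.14 for Jun. Fosl2 was at 0.23, with its span near the middle of all genes.

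**Figure D4:**
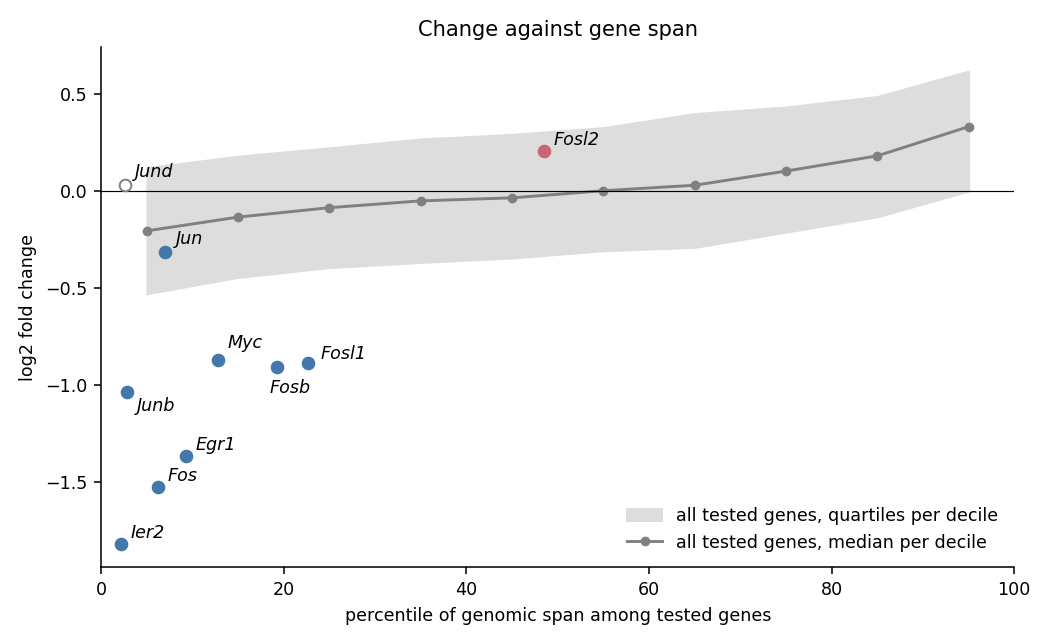
Log2 fold change (y axis) against the percentile of genomic span among tested genes (x axis) for the 10 genes (blue lower, red higher, open not called), with the median and quartiles of all tested genes in each decile of span (grey). Median and quartiles rise with span, from a median of -0.21 in the shortest decile to 0.33 in the longest, and 7 of the 10 genes lie below the lower quartile of their decile.

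For the 3 genes with the largest changes, the genes with the most similar values were found among 9080 candidates with a mean of at least 10 CPM, by the root mean square distance between the log2 deviations of the 6 libraries from the control mean. Nearest to Ier2 were Rtl5 (distance 0.0541, log2 fold change -1.79) and Steap1 (0.0689, -1.83). Nearest to Fos were the caveolin genes Cav2 (0.0913, -1.51) and Cav1 (0.0992, -1.53), which encode proteins that form pits in the plasma membrane. Nearest to Egr1 were Procr (0.0346, -1.36), the protein C receptor, and Fads1 (0.0651, -1.34), a fatty acid desaturase. With 2 groups of 3 libraries this measure rests mostly on the size of the difference between the groups.

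A list of 40 other immediate early or signal-induced genes had 39 tested members, of which 28 fell, 4 rose and 7 did not pass the test, with a median log2 fold change of -0.49. That is 82.1% called, against 61.7% of all tested genes. The number called was 32 in the reported fit and 34 with the length offset. The members with the smallest p were Trib1 (-1.34), a pseudokinase gene, Gadd45g (-1.11) and Gadd45b (-0.77), which encode stress sensors, Errfi1 (-0.86), a feedback inhibitor of EGF receptors, Klf4 (-0.96), a zinc finger factor, and Per1 (-1.04), a clock gene. Trib1 went from 54.6 ± 1.95 to 21.6 ± 1.47 CPM (SD, n = 3, edgeR adjusted p 4.26e-13). Of the Egr1 relatives, chosen after their values were seen, Egr3 was at -2.58 (SE 0.332, edgeR adjusted p 5.07e-07) and Egr2 at -1.94 (SE 0.273, edgeR adjusted p 1.81e-06). Their levels were low, at 3.73 ± 0.661 and 0.620 ± 0.376 CPM for Egr3 and 3.73 ± 0.634 and 0.961 ± 0.263 CPM for Egr2 (SD, n = 3). Also chosen after their values were seen, Arc (-1.89), the orphan receptor gene Nr4a3 (-1.67), the factor gene Atf3 (-1.16) and the cyclooxygenase gene Ptgs2 (-0.89) fell.

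The 4 members that rose, named after their values were seen, were Nr4a1 (0.37), Tiparp (0.29), Rhob (0.17) and Dusp1 (0.14). Nr4a1, a relative of Nr4a3, went from 21.6 ± 1.24 to 27.9 ± 2.08 CPM (SD, n = 3, edgeR adjusted p 0.000542), and its groups did not overlap. Dusp1, which encodes a phosphatase of MAP kinases, had an edgeR adjusted p of 0.0389 and overlapping groups, and it lost the call in 6 of 15 alternatives, among them DESeq2's Wald test (adjusted p 0.0787).

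The activators that switch these genes on moved both ways. Of 15 tested genes for serum response factor, its partners, CREB, its coactivators and the kinases that act on them, 5 rose and 6 fell, with a median of -0.03 and 73.3% called, against 61.7% of all tested genes. The kinase gene Rps6ka3 (RSK2) rose from 52.2 ± 1.90 to 104 ± 0.241 CPM (SD, n = 3), with a log2 fold change of 0.99 with an SE of 0.055 (edgeR adjusted p 6.41e-13). The partner gene Elk4 rose by 0.82 and the CREB coactivator gene Crtc1 by 0.70, and Rps6ka4, which encodes the kinase MSK2, fell by 0.41. The other risers, named after their values were seen, were the partner gene Elk1 (0.26) and the MSK1 gene Rps6ka5 (0.47), the latter without a call with the length offset (0.18). Of the 6 fallers, which ran from -0.41 to -0.17, only Rps6ka4 and Srf are named here. Some of the unnamed fallers had smaller p than Elk1 and Rps6ka5. Srf itself, named after its value was seen, was at -0.21 (edgeR adjusted p 0.00269), and at -0.12 without a call with the length offset.

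In the core RAS and MAP kinase cascade 13 of 24 tested genes rose and 6 fell, with a median of 0.20. The share called was 79.2%, against 61.7% of all tested genes, of which 30.8% rose. The count depended on gene length: 19 were called in the reported fit and 15 with the length offset, where 8128 of 13084 genes were called in all. The members with the smallest p all rose, namely Mapk14 (p38α), from 44.8 ± 3.65 to 129 ± 1.83 CPM (SD, n = 3, log2 fold change 1.53, edgeR adjusted p 2.17e-15), the RAS exchange factor gene Sos2 (0.88), the RAF kinase gene Araf (0.65) and the ERK5 kinase gene Map2k5 (1.13). The kinase gene Mapk3, named after its value was seen, was at -0.18 (edgeR adjusted p 0.00269), without a call with the length offset (-0.06). These are mRNA levels, and kinase activity was not measured.

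Among other leucine zipper factors that pair or compete with FOS and JUN, 8 of 12 were tested, 3 rose and 2 fell, a share of 62.5% that is near the 61.7% of all tested genes. The small MAF genes Mafg (0.19) and Mafk (-0.34) moved apart, and Bach1 (0.19) and Atf2 (0.18) rose. Jdp2, which encodes a repressor that pairs with JUN and was named after its value was seen, was at -0.19 with overlapping groups (edgeR adjusted p 0.0498), and it lost its call in 7 of 15 alternatives. Atf2 lost its call with the length offset (0.03) and without control replicate 1 (0.16) or 2 (0.15). The count of 5 was 3 without control replicate 1.

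Genes that textbooks place under AP-1 control were mostly lower: of 20 tested, 16 fell, 1 rose and 3 did not pass, with a median of -0.78. That is 85% called, against 61.7% of all tested genes, of which 30.9% fell. The number called was 17 in the reported fit and 15 with the length offset. Among the members with the smallest p were Timp1 (-1.33), an inhibitor of matrix proteases, Edn1 (-2.87), the endothelin 1 precursor, Hbegf (-1.37), a ligand of EGF receptors, Itga5 (-0.93), an integrin chain, and Hmga2 (-1.12), a chromatin protein. Edn1 went from 32.7 ± 1.80 to 4.48 ± 1.55 CPM and Hbegf from 62.0 ± 3.54 to 24.1 ± 0.647 CPM (SD, n = 3). Ccnd1, the cyclin D1 gene, named after its value was seen, was at -0.82. The only riser was Vegfa (0.67, SE 0.0487, edgeR adjusted p 4.92e-11), which codes for a vessel growth factor and has other known inputs such as hypoxia.

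In the MAX network 11 of 12 genes were tested, 3 rose and 4 fell, a share of 63.6% that is also near the background. The relatives of Myc fell with it: Mycl went from 13.1 ± 2.11 to 3.57 ± 0.750 CPM (log2 fold change -1.87, edgeR adjusted p 1.27e-09) and Mycn from 11.9 ± 0.791 to 4.66 ± 0.286 CPM (-1.35, edgeR adjusted p 1.00e-08; SD, n = 3). Max, the shared partner, rose from 45.1 ± 3.78 to 64.7 ± 0.702 CPM (SD, n = 3, log2 fold change 0.52, edgeR adjusted p 2.84e-07). Mxd4, which encodes a MAX partner that opposes MYC, rose by 0.62 and Mlxip by 0.44, while Mga fell by 0.32. Mlx, named after its value was seen, was at -0.15 and lost its call in 6 of 15 alternatives.

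Of 26 tested genes with textbook activation by MYC, 18 fell, 1 rose and 7 did not pass, with a median of -0.42. That is 73.1% called, where all tested genes had 61.7% called and 30.9% lower. The number called was 19 both in the reported fit and with the length offset. The members with the smallest p were Odc1 (-1.05), the ornithine decarboxylase of polyamine synthesis, Pa2g4 (-0.84), Gnl3 (-0.81), the nucleostemin gene, Npm1 (-0.60), nucleophosmin, Cad (-0.77), the first enzyme complex of pyrimidine synthesis, and Nme1 (-0.71). Odc1 went from 365 ± 8.40 to 176 ± 4.35 CPM (SD, n = 3, edgeR adjusted p 8.32e-15). Bop1, a ribosome assembly gene, was the riser (0.32, edgeR adjusted p 4.59e-05). Npm1 and Nme1 have near-identical copies or relatives, and how the authors' counting divided shared reads was not stated, so their values are uncertain.

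Factors that bind or shorten short-lived mRNAs moved both ways, with 4 rises and 9 falls among 18 tested genes and a median of -0.10, and 72.2% were called, against 61.7% of all tested genes. Zfp36l2, which encodes a protein that binds AU-rich elements and speeds decay, fell from 277 ± 9.49 to 110 ± 6.73 CPM (SD, n = 3, log2 fold change -1.33, edgeR adjusted p 1.62e-15). The AU-rich element binding gene Khsrp was at -0.49, the deadenylase scaffold gene Cnot1 at 0.38, and Btg1, which encodes a deadenylase-binding protein, at -0.27, without a call with the length offset (-0.07). The other risers, named after their values were seen, were the deadenylase genes Cnot6 (0.24), Pan2 (0.53) and Pan3 (0.15). Pan3 changed sign with the length offset (-0.08) and lost its call in 6 other alternatives. Of the 9 fallers, which ran from -1.33 to -0.15, only Zfp36l2, Khsrp and Btg1 are named here. The unnamed ones included a further deadenylase gene (-0.21), so the deadenylase genes did not all rise. Among 8 genes for turnover of MYC and JUN proteins, 3 rose and 1 fell, so 50.0% were called, below the 61.7% of all tested genes. The ubiquitin ligase gene Huwe1 was at -0.82 (edgeR adjusted p 5.58e-13), the JUN ligase gene Cop1 at 0.64, its partner gene Det1 at 0.41 and the deubiquitinase gene Usp28 at 0.30. Det1 lost its call without control replicate 3 (0.33) or knockdown replicate 1 (0.32).

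**Figure D5:**
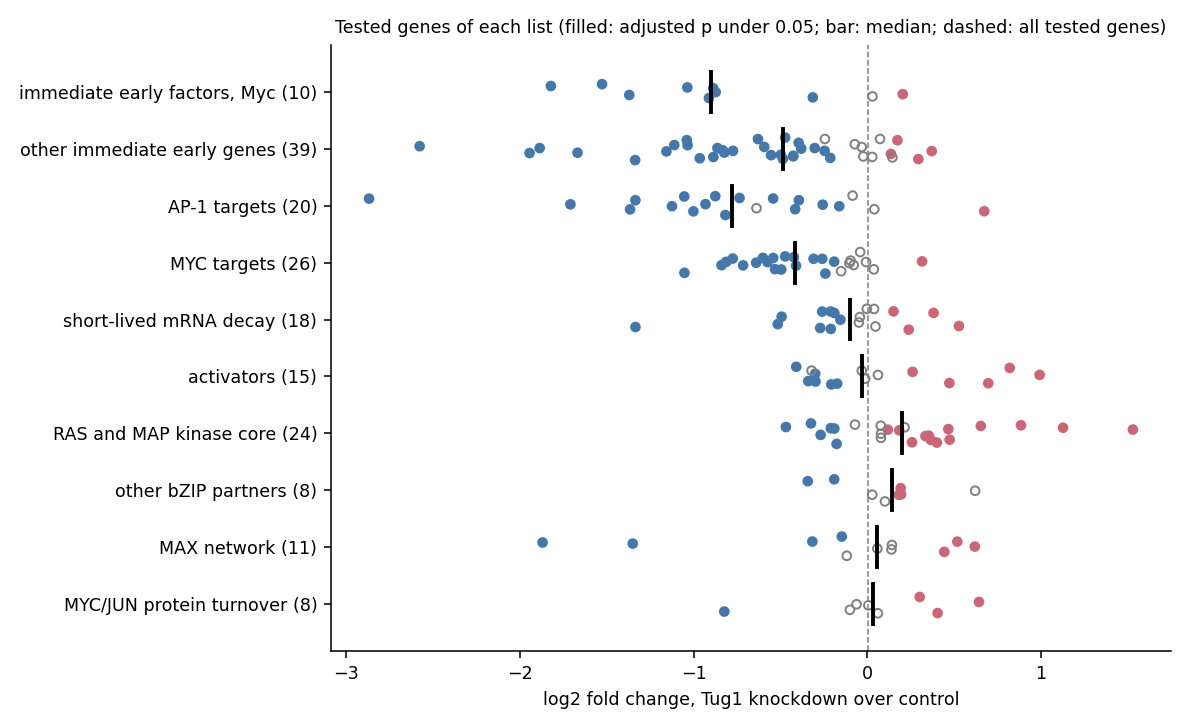
Log2 fold change of knockdown over control (x axis) for the tested genes of each list (number in parentheses), filled where the adjusted p is under 0.05 (blue lower, red higher), with the median of the list (bar) and of all tested genes (dashed). The medians of the 10 genes (-0.90), the AP-1 targets (-0.78), the other immediate early genes (-0.49) and the MYC targets (-0.42) lie left of the dashed line at 0.00, and that of the RAS and MAP kinase core (0.20) lies right of it.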

How the data were processed

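Counts were deposited by the authors as whole numbers under gene symbols for 6 poly-A RNA libraries, unscaled and unpooled, as the values show; 0 columns and 0 unnamed rows were left out. The submitters' processing notes name FastQC 0.11.7, fastp 0.14.1 and STAR 2.5. Counting tool, build, annotation and strand use are not given in the sources used here, so reads of genes that overlap or share sequence cannot be told apart. Per the labels, stranded libraries were made from 500 ng of RNA with an integrity number of at least 9.

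Counts were fitted in R 4.3.3 with edgeR 4.0.16 (expression filter with minimum count 10 and minimum total 15, TMM, quasi-likelihood test, two-sided, no block, Benjamini-Hochberg adjustment over 14216 genes). Log2 fold changes are knockdown over control, and intervals are 95% from the fit's degrees of freedom. Alternatives were DESeq2 size factors, library totals, DESeq2 1.42.0, limma-voom 3.58.1, no filter, a mean of at least 1 CPM, leaving out each library, blocking on the replicate number, a threshold of 0.01, and an offset for a lowess trend (span 0.3) on genomic span. Spans came from RefSeq's GRCr8 table for 13084 tested genes (92.0%). Scripts were tested on simulated data. The 10 genes, the lists and the length offset were chosen with earlier results of these data known. Of each list the 4 members with the smallest p were named (6 for the other immediate early genes, AP-1 targets, MYC targets and the MAX network); other names are marked where they appear, and 1 gene that the rule names is not reported here.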

Additional observations from a re-analysis of the deposited data

How the results depend on the processing

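The 8 falls and the rise of Fosl2 kept their direction and call in all 15 alternatives to the reported fit, and Tug1 did too (-2.22 to -2.08). Over the fits that each left out 1 library, Ier2 ran from -1.87 to -1.77, Egr1 from -1.42 to -1.31, Myc from -0.91 to -0.81 and Jund from -0.07 to 0.15. Jund changed sign without control replicate 3 (-0.0676) and without knockdown replicate 1 (-0.0147) and was called higher with the length offset (0.247) and with that offset and the replicate block (0.252), which took the number of rising genes among the 10 from 1 to 2 in both fits. Among the lists, only the count of changed leucine zipper partners moved by more than 1.5 times, from 5 to 3 at an adjusted p under 0.01 and to between 3 and 5 with 1 library left out. Of 74 other named genes, 63 kept direction and call in every alternative. Of all 1110 combinations of gene and alternative, 41 lost the call and 2 reversed, both for Pan3, with the length offset (-0.0799) and with that offset and the replicate block (-0.0805). The number of genes changed in all ran from 7353 at an adjusted p under 0.01 to 8987 without a filter. The length offset removes the trend with gene span that each library held, and with the trend seen here it raises the values of short genes and lowers those of long ones. For the other settings the cause was not tested.

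The reported fit did not pair the libraries by number, and the labels do not say whether equal numbers shared a batch. Across genes, the control and knockdown deviations from their means had correlations of -0.0052 for replicate 1, 0.0288 for 2 and 0.0258 for 3. With the replicate block 8848 genes were called, and the calls of the 10 genes were the same, with Fos at -1.53 and Jund at 0.04. Among the 10 genes, depth limits Fosb most: 1 CPM stood for 12.9 to 13.8 counts, and the limit of 3 counts for 0.217 to 0.232 CPM, for counting error only.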
